A study of Caenorhabditis elegans with 4 samples.

Results

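Wide peaks that stand alone were examined among the ELT-3 binding regions of C. elegans embryos. A wide solitary peak is an interval of the combined peak list that spans 500 bp or more and has no other peak midpoint within 2000 bp on its chromosome. Members were selected on 2 measured values, width and midpoint. The rule gave 352 of the 3936 combined peaks (8.94%). They are set beside the 2514 peaks of at least 50 bp but under 500 bp that meet the same spacing rule, called narrower solitary peaks here. The list held 517 peaks of 500 bp or more, of which 165 had a closer neighbour and were left out, as were 147 solitary peaks under 50 bp.

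ELT-3 was mapped by chromatin immunoprecipitation with sequencing (ChIP-seq), with 2 ChIP libraries and 2 input libraries. All 4 came from embryos of strain OP75, a mixed population of males and hermaphrodites grown at 20 °C and crosslinked with 2% formaldehyde. The strain carries the unc-119 (ed3) mutation on chromosome III and a transgene, wgIs75, introduced by bombardment, which encodes elt-3 with TY1, EGFP and FLAG tags and restores unc-119. It was outcrossed 3 times. ChIP used an antibody against EGFP, and input was whole chromatin of the same strain, so no library without the tagged protein was used here. Separate cultures are not named in the labels for the ChIP samples.

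GATA factors are zinc finger proteins that bind short DNA sites with a GATA core, and ELT-3 is the member of the family best known from the worm epidermis (hypodermis), where GATA factors act on genes of the cuticle and the epidermal cell. Several such sites can lie close together in a regulatory region. A peak caller that joins neighbouring enriched positions then reports 1 interval, so a wide interval may hold 1 site or several. These lists give the interval and 1 probability, with no summit inside it. No genome of the build used by the lists was at hand, so the sequences, motifs and genes of the peaks were not analysed here.

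In all 3 lists each deposited peak probability was the tail of a one-sided binomial test for 1 combination of ChIP tags and scaled control tags and no other. The tag ratio below is ChIP tags over control tags from that reading. Its 95% interval (exact Clopper-Pearson) covers counting error only. It takes the scaled control tags as if they were raw counts, so it is approximate. ChIP and control tags summed to 121448 and 43864 over replicate 1 peaks and to 334408 and 120447 over combined peaks. Over replicate 2 peaks they summed to 335455 and 121129, slightly more than over combined peaks. In 2721 of the 3936 combined peaks the ends and both tag numbers equalled those of a replicate 2 peak. How the combined list was made is not stated. The total reads per library are unknown. With 2 ChIP lists no test across samples was possible, so shares are given with 95% Wilson intervals, differences of shares with Newcombe intervals, and medians with exact order-statistic intervals, all of which describe peaks of these lists.

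The 352 members covered 260149 bp, 20.9% of the sequence in combined peaks, and held 65248 of the ChIP tags (19.5%). Their widths had a median of 640.5 bp and reached 2753 bp, against a median of 247 bp in narrower solitary peaks. There were 145 members under 600 bp, 69 from there to under 700 bp, 63 to under 800 bp, 34 to under 1000 bp and 41 of 1000 bp or more. Width was used to choose them and is a description.

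Taken as classes, members were less dense in ChIP tags than narrower solitary peaks, and slightly less dense in control tags. The median was 236.6 ChIP tags per kb (95% interval 227.3 to 244.5) in members and 273.1 (270.7 to 274.9) in narrower solitary peaks. Control density had a median of 90.97 tags per kb (87.9 to 93.97) in members and 95.4 (94.4 to 96.8) in narrower ones. The median tag ratio was 2.58 (2.50 to 2.64) in members and 2.86 (2.81 to 2.89) in narrower solitary peaks. By width, in groups from 50, 100, 200, 300 and 400 bp, narrower solitary peaks had median ratios of 3.76, 3.07, 2.76, 2.62 and 2.72. Members under 600 bp had 2.63, so the lower ratio was not particular to peaks above the limit. The 2 ranges of ratio overlapped widely, from 1.43 to 7.12 in members and from 1.63 to 13.5 in narrower ones.

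With more tags, a lower ratio is enough for a peak to be called. The median member had 155 ChIP tags against 58 control tags, and the median narrower solitary peak had 65 against 23. At the largest probability of the list, 0.000321, the lowest ratio that 155 ChIP tags can give is 1.57, and the lowest that 65 can give is 2.17. Median ratios were also compared within narrower ranges of ChIP tags, chosen after seeing the data. From 75 to under 100 tags they were 2.71 in 11 members and 2.59 in narrower peaks. From 100 to under 125 tags they were 2.31 and 2.78, and from 125 to under 150 tags 2.60 and 3.19. From 150 to under 200 tags they were 2.63 and 4.08. The part of tag numbers in the lower ratio was not tested. The ratio and the width come from the same libraries, so no test is given between the classes in the combined list.

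**Figure D1:**
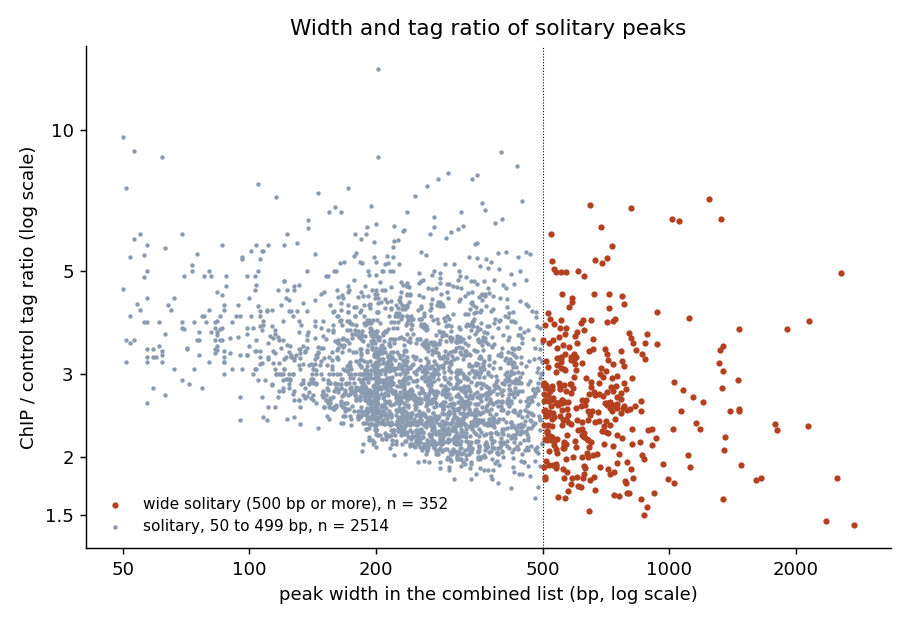
Tag ratio (ChIP over control, log scale) against peak width in bp (log scale) for the 352 wide solitary peaks (red) and the 2514 narrower solitary peaks (grey) of the combined list, 1 point a peak, with the 500 bp limit dotted. The lower edge of the cloud falls with width, to 1.43 in the widest peak, while high ratios occur on both sides of the limit.

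Among members the ratio did not follow width. The Spearman correlation of width with the log2 ratio was -0.04 over 352 members, and -0.30 over the 2514 narrower solitary peaks. Control density correlated with the log2 ratio at -0.70 in both classes, but the 2 measures share the control tags. In the 5 groups of members by rising width the median ratios were 2.63, 2.50, 2.59, 2.30 and 2.51. The number of ChIP tags grew with width over these groups, from a median of 127 to a median of 331.

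Near the limit the peaks on either side were much alike. The narrowest members were at V 11228482 to 11228982 (501 bp, ratio 3.56), X 17513379 to 17513880 (502 bp, 2.88) and III 887862 to 888363 (502 bp, 2.33). Just below the limit, the peaks at I 1873691 to 1874189, IV 5133773 to 5134271 and IV 14594104 to 14594601 had ratios of 2.83, 2.87 and 3.50. The member closest to a neighbour, at I 3679756 to 3680374, had a midpoint 2001.5 bp away, and the wide peak that just missed the rule, at I 9332408 to 9333462, had one 1986 bp away.

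The peaks that ranked first by probability were mostly members. Of the first 20 combined peaks 13 were members, of the first 100 there were 51, and of the first 500 there were 169. Narrower solitary peaks made up 1, 16 and 182 of the same ranks. Probability improves with the number of tags, and wide intervals hold more of them, so these counts are a description and no order of binding strength.

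At the 8 members of lowest probability, 7 of them on X, the replicate 1 list gave ratios close to those of the combined list. The first, X 16929321 to 16931884, was covered by 2 peaks in replicate 1, at X 16929328 to 16930478, which held 257 ChIP and 65 control tags, and at X 16930710 to 16931876, which held 220 and 38. Replicate 2 and the combined list both had 785 against 159 in a single interval. The ratios of the 2 replicate 1 peaks were 3.95 (3.00 to 5.27) and 5.79 (4.09 to 8.40), with overlapping intervals, so these counts do not separate a stronger and a weaker part.

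The member at X 14525335 to 14526578 had the highest ratio of all 352. It held 260 ChIP tags against 36 control tags in replicate 1, 463 against 65 in replicate 2 and the same in the combined list. The ratio was 7.22 (5.08 to 10.5) in replicate 1 and 7.12 (5.48 to 9.38) in the combined list. X 8035640 to 8036967 gave 366 against 57 in replicate 1 and 554 against 86 in both other lists, and X 6296071 to 6296882 gave 241 against 37 and 387 against 57. The ratios of these intervals lay between 6.42 and 7.22 in replicate 1 and in the combined list. Replicate 2 had the same counts as the combined list at all 3, so it is no separate value.

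Another 3 members on X, of 648 to 1056 bp, had ratios close to these. X 13700511 to 13701158 spans 648 bp, with 186 ChIP tags against 27 control tags in replicate 1 and 331 against 48 in replicate 2 and the combined list. X 4208653 to 4209668 had 183 against 25 in replicate 1, 336 against 52 in replicate 2 and 342 against 53 in the combined list. At X 2996411 to 2997466 the numbers were 308 against 47, 449 against 69 and 453 against 71. The 5 members with the highest ratios in the combined list, 6.44 to 7.12, were all on X and all within these 8 positions.

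The remaining position of the 8, IV 14032593 to 14034498, was wider than most and had a lower ratio. It spans 1906 bp and had 360 ChIP tags against 100 control tags in replicate 1 and 608 against 162 in both other lists. Its ratio was 3.60 (2.88 to 4.54) in replicate 1 and 3.75 (3.15 to 4.49) in the combined list. These intervals lie below those of the peaks on X at 14525335, 8035640 and 6296071.

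On the other autosomes the first-ranked members spanned 523 to 2155 bp. III 5106882 to 5109036 is the fifth widest member. Replicate 1 covered it with 2 peaks, the one with more tags holding 177 ChIP tags against 40 control tags (4.42, 3.12 to 6.40), and the combined list had 479 against 123 (3.89, 3.19 to 4.79). I 4171973 to 4172859 had 242 against 74 in replicate 1 and 410 against 112 in the combined list (3.66, 2.96 to 4.55). Replicate 2 drew this interval 1084 bp wide in place of 887 bp, with 441 against 127. V 12553222 to 12553744 had 152 against 26 in replicate 1 and 239 against 40 in the combined list, and II 9127978 to 9128509 had 131 against 29 and 222 against 44.

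Most members overlapped a peak of replicate 1, whose list did not enter the rule directly. Tags in common between that list and the combined list are not excluded by the labels. The overlap is therefore no sign of independent agreement. Of the 352 members, 275 (78.1%, 73.5 to 82.1) overlapped a replicate 1 peak by at least 1 bp, as did 917 of the 2514 narrower solitary peaks (36.5%, 34.6 to 38.4). The background over all combined peaks was 41.0%. The difference was 41.6 percentage points (36.7 to 46.1). A wider interval is more easily overlapped, and with a reciprocal overlap of 50% the shares were 66.2% of members and 34.2% of narrower peaks, against a background of 37.4%. With midpoints within 100 bp they were 57.7% and 35.6%, against a background of 37.7%.

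Within the same range of tag numbers the order turned round. Among peaks of 100 to under 200 ChIP tags, 175 of 247 members (70.9%, 64.9 to 76.2) and 267 of 340 narrower solitary peaks (78.5%, 73.9 to 82.6) overlapped a replicate 1 peak. The difference was -7.68 percentage points (-14.9 to -0.605). From 100 to under 125 tags the shares were 51.4% of 70 members and 72.3% of 231 narrower peaks. From 125 to under 150 tags they were 76.5% of 81 and 88.75% of 80, and from 150 to under 200 tags 80.2% of 96 and 100% of 29. From 75 to under 100 tags, where there were only 11 members, the shares were 63.6% and 46.0%. Over the whole range from 100 to under 200 tags the median ratio was 2.53 (2.44 to 2.61) in members and 2.92 (2.81 to 3.05) in narrower peaks, median control tags were 54 and 39, and median ChIP tags were 142 and 114. The part of these ratios in the shares was not tested.

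**Figure D2:**
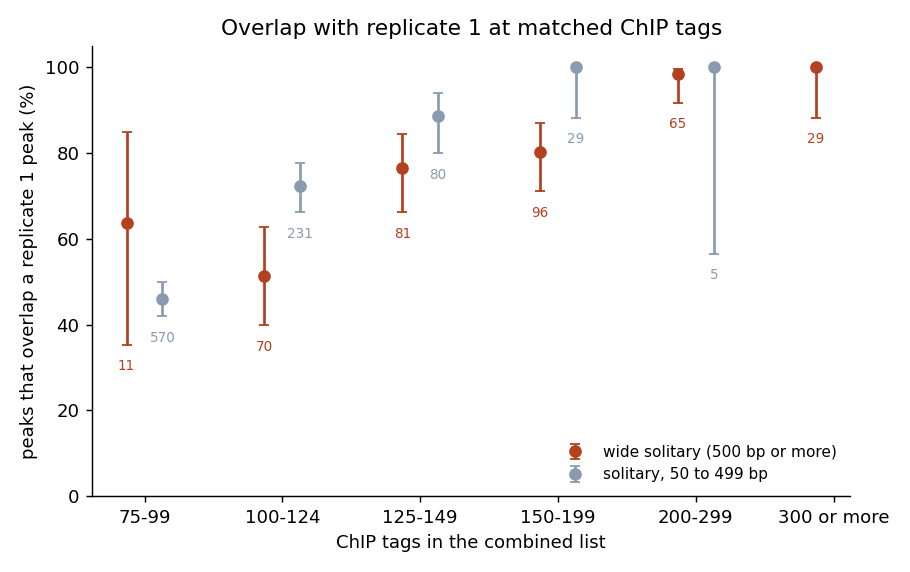
Share of solitary peaks that overlap a replicate 1 peak by at least 1 bp (percent, with 95% Wilson intervals), by the number of ChIP tags in the combined list, for wide solitary peaks (red, left) and narrower solitary peaks (grey, right). The number of peaks stands under each point, and in the 3 groups from 100 to under 200 tags the wide peaks lie lower.

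The 77 members with no replicate 1 peak were weakly enriched. Their median ratio was 2.00 (1.90 to 2.12) and their highest 2.94, against a median of 2.74 (2.64 to 2.84) in the 264 members with 1 replicate 1 peak. They held fewer ChIP tags, with a median of 126 against 164, at a higher control density, with a median of 102.9 per kb against 88.4. The first-ranked of them was III 7570237 to 7570868, with 153 ChIP tags against 52 control tags in both replicate 2 and the combined list. I 6781408 to 6781990 followed with 188 against 80, which replicate 2 drew only 436 bp wide with 164 against 69. X 11791229 to 11792083 came next with 160 against 64. All 3 were above the median of 155 tags or close to it.

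Where replicate 1 had a peak, it usually drew a shorter one. In 254 of the 275 members the replicate 1 peak with the most tags was narrower than the combined interval, with medians of 525 bp in replicate 1 and 658 bp in the combined list. It covered a median of 82.5% of the member, and in 154 of the 275 it was itself 500 bp or more. By the same width and spacing rule the replicate 1 list alone held 194 wide solitary peaks. Of these 145 (74.7%) overlapped a member, and they reached 145 of the 352 members (41.2%). Replicate 1 has fewer tags at these intervals, and the part of depth in the shorter intervals was not tested.

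Splitting was rare. Of the 275 members, 11 (4.0%, 2.25 to 7.02) overlapped 2 replicate 1 peaks, and none of the 917 narrower solitary peaks did, which allows a share of up to 0.417% (Wilson). Over all combined peaks with a replicate 1 peak, 16 of 1612 (0.99%) overlapped 2 or more. A narrow interval has little room for 2 peaks, so this contrast cannot be told apart from width. The 11 split members had a median width of 1342 bp, from 681 to 2564 bp, and ratios from 2.29 to 4.94. The 264 members with 1 replicate 1 peak had a median width of 651.5 bp. All split members but X 7822619 to 7823390 and IV 8955697 to 8956377 spanned 1000 bp or more. Of the 41 members that wide, 39 had a replicate 1 peak. The split members included 5 on X, 2 on II and 2 on IV, among them the pair at II 5325773 to 5327574 and II 5329817 to 5331158. All 352 members overlapped exactly 1 replicate 2 peak, and 237 (67.3%) had the same ends and the same tags there. Narrower solitary peaks had the same ends in 69.5%, a difference of -2.16 percentage points (-7.53 to 2.87).

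The ratios in replicate 1 were again lower in members than in narrower solitary peaks. The median log2 ratio in replicate 1 was 1.5 (1.43 to 1.56) over 275 members and 1.76 (1.73 to 1.79) over 917 narrower peaks, a difference of -0.26 (-0.33 to -0.19). Both sets are the peaks that replicate 1 called, and a narrower peak with fewer tags needs a higher ratio to be called there. Among peaks of 100 to under 200 combined ChIP tags the difference was -0.11 (-0.21 to -0.04).

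Member by member, replicate 1 and the combined list gave close values. The median of the replicate 1 ratio over the combined ratio was 0.994 (0.979 to 1.0), replicate 1 was higher in 127 of 275 members (46.2%), and the 95% intervals of the 2 ratios overlapped in all 275. The labels do not exclude tags in common between the lists, so closeness is no sign of independent agreement. At 48 members whose ends matched within 25 bp, replicate 1 held a median of 0.662 of the combined ChIP tags, from 0.552 to 0.943, and a median of 0.662 of the control tags, from 0.584 to 0.741.

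**Figure D3:**
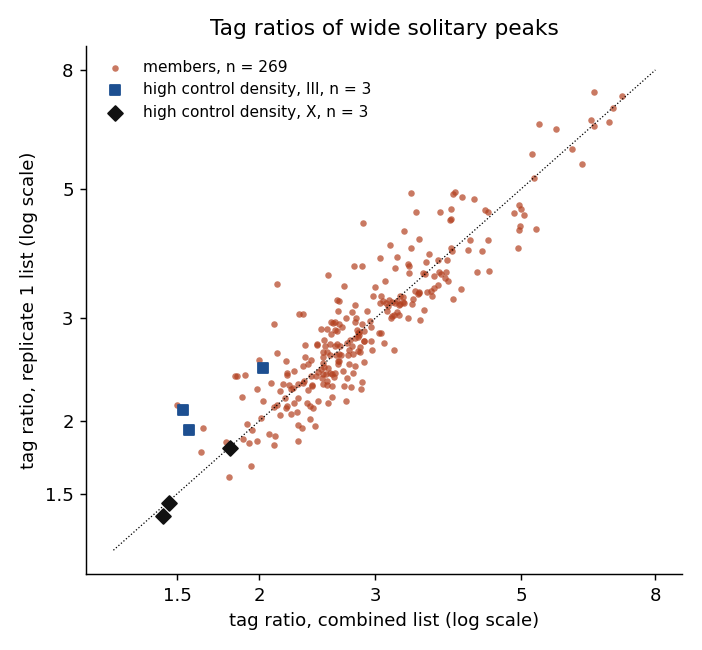
Tag ratio in the replicate 1 list against the tag ratio in the combined list (both log scales) for the 275 members with a replicate 1 peak, 1 point a member, with the line of equality dotted. Squares and diamonds mark the 3 members on III and the 3 on X with the densest control tags, and the squares lie above the line while the diamonds lie near it.

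The members described next stood above that line on III and X, as did others, and were singled out after their values were seen. At III 1299605 to 1300477 both lists drew the same width of 873 bp, yet replicate 1 held 198 of the 210 combined ChIP tags against 93 of the 140 control tags. The ratio was 2.13 (1.66 to 2.75) in replicate 1 and 1.5 (1.21 to 1.87) in the combined list. III 931225 to 931869 had 259 against 124 in replicate 1 and 286 against 187 in the combined list, with ratios of 2.09 and 1.53. III 10224455 to 10225338 had 230 against 119 and 281 against 180, with ratios of 1.93 and 1.56. X 14908255 to 14909375, with matching ends, had 240 against 100 in replicate 1 and 291 against 153 in the combined list, with ratios of 2.40 and 1.90. X 11887070 to 11887611 had 103 against 53 and 133 against 81, with ratios of 1.94 and 1.64. The 3 on III are among the 5 members with the lowest combined ratios, and in replicate 1 they ranked 181st, 108th and 217th. Their ranks in the combined list were 3221, 1866 and 1664. The 95% intervals of the 2 lists overlap at all of these positions. Since tags in common are not excluded, this overlap does not measure the difference between the lists.

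The 5 widest members differed in control density and ratio, and other wide members lay between them. I 1835298 to 1837436 (2139 bp) had 132.3 control tags per kb and a ratio of 2.32. II 5325773 to 5327574 (1802 bp) had 92.7 and 2.29. Of the 5, X 16929321 to 16931884 and III 5106882 to 5109036 had 62.0 and 57.1 control tags per kb and ratios of 4.94 and 3.89. The other 3 of the 5 widest lay within 40 kb of each other on X and had dense control tags and low ratios. X 13915732 to 13918484, the widest member, had 391 ChIP tags against 285 control tags in replicate 1 and 722 against 506 in both other lists and a combined ratio of 1.43 (1.27 to 1.60). X 13936403 to 13938916 had 533 against 297 in replicate 1 and 885 against 491 in the combined list, a ratio of 1.80 (1.61 to 2.02). X 13947251 to 13949615 had 388 against 268 and 624 against 428, a ratio of 1.46 (1.29 to 1.65).

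Control density in these 3 was 181 to 195.3 tags per kb. Only 6 members (1.70%) exceeded 178.0 per kb, the 99th percentile of narrower solitary peaks. The 6 were these 3 and 3 on III, at 931225 to 931869, 7446774 to 7447880 and 10224455 to 10225338. Their ratios ran from 1.43 to 2.02, and all 6 had a replicate 1 peak. Within 40 kb of the widest member X also held members at X 13920264 to 13921119 (856 bp, ratio 1.63), X 13941031 to 13941605 (575 bp, 1.69) and X 13950519 to 13951056 (538 bp, 2.60).

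**Figure D4:**
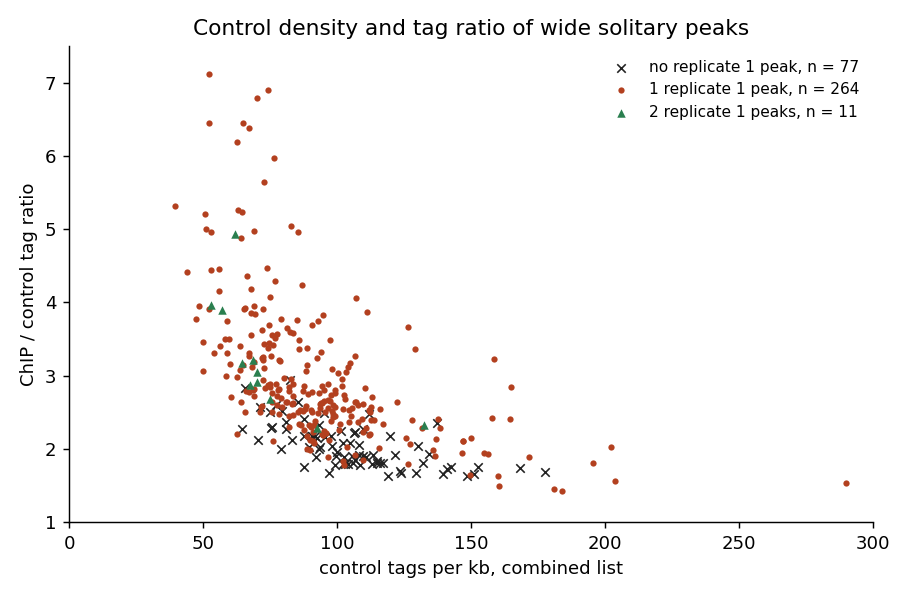
Tag ratio against control tags per kb in the combined list for the 352 wide solitary peaks, marked by the number of replicate 1 peaks they overlap (cross, none; circle, 1; triangle, 2). Ratios above 5 occur under 90 control tags per kb, and members with no replicate 1 peak lie at ratios up to 2.94.

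Solitary is meant by midpoints, and many members had neighbours not far off. Another midpoint lay within 5000 bp of 136 members (38.6%) and 713 narrower solitary peaks (28.4%). Because wide peaks reach toward their neighbours, the gap between edges was 2000 bp or less in 35 members (9.94%), and the smallest was 634 bp. In 22 places 2 or more members had midpoints within 10 kb of the next, which took in 51 members (14.5%). The largest groups held 4 members, at II 5319917 to 5331158 and X 13936403 to 13951056, with no other combined peak between them. In the group on II the ratios were 1.95 to 3.05 and all 4 members had a replicate 1 peak. In the group on X they were 1.46 to 2.60 and 3 of the 4 members had one. Groups of 3 lay at I 527264 to 532876, IV 10817045 to 10826025 and X 14557698 to 14568907. In these 2, 1 and 3 members had a replicate 1 peak.

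Members were spread unevenly over the chromosomes. X held 95 (27.0%, 22.6 to 31.9), I 78 (22.2%), V 52 (14.8%), II 48 (13.6%), IV 45 (12.8%) and III 34 (9.66%, 6.99 to 13.2). Per Mb up to the last peak there were 5.37 on X and 5.18 on I. II had 3.14 per Mb, IV 2.58, V 2.49 and III 2.47. Of the narrower solitary peaks X held 16.5% (15.1 to 18) and III 16.9% (15.5 to 18.4). The difference on X was 10.5 percentage points (5.90 to 15.6), on I 5.37 (1.07 to 10.2) and on III -7.25 (-10.3 to -3.44). Peaks on X and I were already known to be wider in these lists, so this is no separate support.

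Put as the share of solitary peaks of 50 bp or more that are wide, X had 18.7% (15.5 to 22.3) and I 15.6% (12.7 to 19). II had 11.0%, V 10.2%, IV 10.0% and III 7.41% (5.35 to 10.2). Under the same rule in the replicate 1 list X had 24.6% (19.7 to 30.3), I 18.2% (13.7 to 23.8), II 12%, V 9.44%, III 9.28% and IV 8.72%. X and I came first in both lists, and the intervals of II to V overlapped one another in both. Control density in members was also highest on I, with a median of 106.0 per kb, and on X, with 93.97, against 80.3 to 85.0 on II to V. Narrower solitary peaks had the same order, with 111 per kb on I and 103 on X, against 87.9 to 93.1 on II to V.

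**Figure D5:**
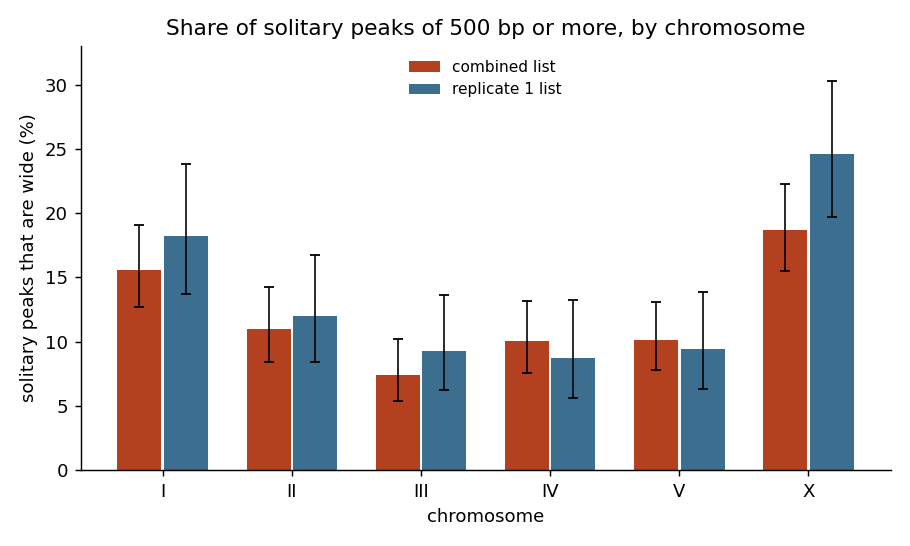
Share of solitary peaks of 50 bp or more that are 500 bp or wider (percent, bars from 0, with 95% Wilson intervals) on each chromosome, by the same rule in the combined list (red, left) and the replicate 1 list (blue, right). X has the highest bar in both lists, at 18.7% and 24.6%.

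Within the same range of tag numbers the difference on X was small. Among peaks of 100 to under 200 ChIP tags X held 58 of 247 members (23.5%) and 75 of 340 narrower solitary peaks (22.1%), a difference of 1.42 percentage points (-5.34 to 8.41). On I the shares were then 20.6% of members and 30.0% of narrower peaks, a difference of -9.35 points (-16.2 to -2.18), turned from the 5.37 points over all tag numbers. The widest members were the most often on X. Of the 41 members of 1000 bp or more, 18 (43.9%, 29.9 to 59.0) were on X and 8 (19.5%) on I, and of the 145 under 600 bp, 33 (22.8%, 16.7 to 30.2) were on X. The 6 members on X within 40 kb of the widest, itself included, supply 3 of the 18, and their control tags are given above.

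Within chromosomes members lay much like narrower solitary peaks. With each extent divided into 3 equal parts, the central part of the autosomes held 103 of 257 members (40.1%, 34.3 to 46.2) and 39.0% of 2100 narrower solitary peaks (36.9 to 41.1), a difference of 1.13 percentage points (-5.05 to 7.56). On X it held 25 of 95 members (26.3%, 18.5 to 36.0) and 32.6% of 414 narrower peaks (28.3 to 37.3), a difference of -6.29 points (-15.4 to 4.29). Neither interval excludes 0, and the one on X still allows a lower share by 15.4 points. Overlap with replicate 1 was 70.5% of members on I, 76.9% to 77.8% on II, IV and V, 82.1% on X and 88.2% on III, with Wilson intervals that overlapped between all chromosomes.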

How the data were processed

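Per the file headers, the authors deposited peak lists called with PeakSeq on WormBase WS180, 1 for each ChIP sample and 1 combined. The one measurement is a deposited q-value per peak, which behaves as a p-value between 0 and 1. The aligner, settings, threshold and the combining step were not stated in the sources. Groups follow sample titles. The description fields run against them, naming the ChIP samples as input and giving the antibody under the input samples, and no file settles this beyond the peak lists being filed under the samples titled ChIP.

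Each q-value was looked up among binomial tails of probability 0.5 (totals up to 3000 tags, 20000 for 1 value left, relative tolerance 1e-11), which gave ChIP and scaled control tags. Code was tested on simulated data. Overlap means at least 1 bp, and where a member overlapped 2 replicate 1 peaks the one with more ChIP tags was used. Confidence is 95%. Named positions are the 8 of lowest probability, the 5 widest, the 5 highest and 5 lowest ratios, the first on each chromosome, those nearest the limits and the 3 first-ranked without a replicate 1 peak. Members and rules were chosen with earlier results of these data known. Alternatives varied width, spacing, overlap, list and tag numbers. Genes, motifs and sequences were not analysed. Work was done with scipy 1.17.1, pandas 2.3.3 and numpy 2.4.6 under Python 3.11.15, and figures with matplotlib 3.10.9.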

Additional observations from a re-analysis of the deposited data

How the results depend on the processing

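Over 7 results and 61 alternatives, of which 8 were chosen after seeing the data, 45 values stayed within the interval of the value reported, or within 1.5 times the count. The number of members was 598 with a minimum of 400 bp, 207 with 600 bp and 216 with a spacing of 5000 bp, against 352. Without replicate 1, in the replicate 2 list, it was 362, the median log2 ratio 1.36 and the difference on X 9.68 percentage points. The difference in the central part of autosomes was 0.535 there. That list repeats the ends and tags of 2721 of the 3936 combined peaks, so its closeness is no separate support. In the replicate 1 list, without replicate 2, these values were 194, 1.42, 16.2 and -1.33. The difference in overlap with replicate 1, 41.6 points, was 31.9 with a reciprocal overlap of 50%, 22 with midpoints within 100 bp and -7.68 at 100 to under 200 ChIP tags. In narrower ranges of tags, chosen after seeing the data, it was 17.7 from 75, -20.9 from 100, -12.2 from 125 and -19.8 from 150 to under 200 tags. At 100 to under 200 tags the difference in replicate 1 log2 ratio was -0.11, against -0.26, and that on X, also chosen after seeing the data, 1.42 points, against 10.5. The share of split members was 1.76% with a spacing of 5000 bp, against 4.0%. The causes were not tested. Leaving out peaks within 40 kb of the widest member kept the 3 results tried within their intervals. No paired analysis was possible because peak lists exist for ChIP samples alone, with none for input.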
